A study of Homo sapiens with 6 samples.

Results

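The genes of the translation initiation and elongation factors were followed through RNA immunoprecipitation of the acetyltransferase NAT10 (RIP-seq) and of RNA carrying N4-acetylcytidine, the modification ac4C (acRIP-seq). Members were the protein-coding genes of the RIP table whose symbol begins with EIF1 to EIF6, EEF1, EEF2 or PABPC and a digit, which gave 76 genes of 58302 in all and of 19847 protein-coding genes. The symbol rule also takes in genes that act on these factors, such as the EIF2 kinases, the EIF4E-binding proteins and the methyltransferases of the elongation factors, and it leaves out factors with other names. Of the 76 members, 68 were above 0 in all 4 libraries of the RIP table, and 66 had an Input of at least 1 FPKM (fragments per kilobase of transcript, scaled to the depth of the library) under both labels.

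The study asked which transcripts NAT10 binds and which carry ac4C in colorectal cancer. Unedited and untreated SW480 and DLD-1 cells, epithelial lines from human colorectal tumours, were grown in serum-supplemented DMEM and gave 6 libraries, namely 1 Input library of total RNA, 1 RIP library and 1 acRIP library per line. Each group is a single library, so the values compare libraries, no test was possible, and errors cover the counting of reads only. The reads behind the FPKM values summed, for the SW480 labels, to at least 26997843 in RIP and 12690821 in Input and, for the DLD-1 labels, to at least 22554559 in RIP and 11822804 in Input, and the depth of the acRIP libraries is unknown. Of 7 epithelial and colorectal markers, 6 (EPCAM, CDH1, KRT8, KRT18, KRT19 and CDX2) were at 1 FPKM or more in all 4 libraries and VIL1 was between 0.261 and 1.24 FPKM, while PTPRC, COL1A1 and PECAM1, markers of leukocytes, fibroblasts and endothelium, were all below 1.

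The RIP and Input libraries did not pair by label. Over 16196 protein-coding genes on the log2(FPKM + 1) scale, the RIP library labelled SW480 had a Pearson r of 0.871 with the Input labelled SW480 and of 0.944 with the Input labelled DLD-1. For the RIP library labelled DLD-1, r was 0.856 with its own Input and 0.951 with the Input labelled SW480. The 66 members alone gave the same order, with r of 0.927 against 0.958 for the first RIP library and 0.925 against 0.948 for the second. These are correlations across genes, which are not independent replicates. Libraries are therefore named by their labels, and each RIP/Input ratio is given as labelled and with the Inputs exchanged between the labels. These are the pairings meant below, and values over the other Inputs are those with the Inputs exchanged.

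Translation of an mRNA begins when the cap-binding complex of EIF4E, EIF4G and the helicase EIF4A recruits the small ribosomal subunit with EIF3 and the initiator tRNA, which is carried by EIF2. After start codon selection, EEF1A delivers aminoacyl-tRNAs, EEF1B reloads EEF1A with GTP, and EEF2 moves the ribosome along the mRNA. The mRNAs of many elongation factors, of PABPC1 and of part of the initiation factors begin with a terminal oligopyrimidine (TOP) tract, an unbroken run of C and U at the cap, through which mTOR signalling controls their translation.

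The first bases of the members were read from RefSeq promoter windows (GRCh38.p14), which held 59 of the 76 genes with 75 annotated starts. Each line below shows the 10 bases before an annotated start and the first 20 bases of the transcript, 5′ to 3′ on the strand of the gene. The run of C and T that begins at the first transcribed base is in capitals. Genes of the TOP list are shown because the differences between the libraries described below were found in most of its tested genes, though not in these alone. All genes of the list with a window are included. EIF3M, EIF1AX, EIF3J and EIF4G1 are not on the list. They are among the members with the highest or, for EIF4G1, the lowest ratios of the same sign under both labels.
EEF1A1 (chr6:73521013-73521042, minus strand): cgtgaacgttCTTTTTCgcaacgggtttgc
EEF2 (chr19:3985444-3985473, minus strand): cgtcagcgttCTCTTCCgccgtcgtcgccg
EEF1B2 (chr2:206159885-206159914, plus strand): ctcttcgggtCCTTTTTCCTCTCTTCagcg
EEF1B2 (chr2:206159599-206159628, plus strand): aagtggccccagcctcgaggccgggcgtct
EEF1G (chr11:62573872-62573901, minus strand): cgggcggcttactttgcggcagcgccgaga
EIF2A (chr3:150546777-150546806, plus strand): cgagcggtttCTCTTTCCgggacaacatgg
EIF2S3 (chrX:24054946-24054975, plus strand): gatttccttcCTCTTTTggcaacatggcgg
EIF3F (chr11:7987327-7987356, plus strand): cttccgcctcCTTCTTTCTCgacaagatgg
EIF4B (chr12:53006446-53006475, plus strand): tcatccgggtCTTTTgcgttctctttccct
EIF3M (chr11:32583821-32583850, plus strand): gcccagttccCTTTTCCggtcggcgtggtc
EIF1AX (chrX:20141819-20141848, minus strand): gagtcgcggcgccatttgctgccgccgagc
EIF3J (chr15:44537137-44537166, plus strand): ccgccgtgctaactcctcgctagctctccc
EIF4G1 (chr3:184314596-184314625, plus strand): gcggggagccggaaatggttgtggactacg
EIF4G1 (chr3:184315154-184315183, plus strand): gggccgacccTCacttgcctgaaaccggct
EIF4G1 (chr3:184320253-184320282, plus strand): ctggatctgggccctgcccccagagatcag

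The run was 7 bases long in EEF1A1, EEF2, EIF2S3 and EIF3M, 8 in EIF2A, 10 in EIF3F and 5 in EIF4B. EEF1B2 had a run of 16 bases at one of its starts and none at the other. EEF1G, which is on the TOP list, had none at the annotated start. EIF1AX and EIF3J had no such run, and the longest at the 3 starts of EIF4G1 was 2 bases. A run of at least 5 bases was present at 12 of the 75 starts of the members (16%), against 5.17% of all 35116 starts in the windows. The letters CTTT, sought on the sense strand of the 30 bases only, stood in 13 of the 75 windows (17.3%), against 12.5% of all windows. On the TOP list, 7 of the 9 starts had a run of at least 5 bases, but the list is defined by this feature. EIF3M, EIF3D, EIF3K, EIF2D and EIF4A2, which are not on the list, also had a start with such a run.

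Among the libraries of the RIP table, the members spanned more than 3 orders of magnitude per length. The median of the 66 members was 37.3 FPKM in RIP and 30.4 in Input labelled SW480, and 37.7 in RIP and 28.7 in Input labelled DLD-1. Over all 10350 protein-coding genes with the same Input minimum, these medians were 11.8, 9.96, 11.1 and 10.4 FPKM. All 76 members together held 2.05% of the reads of RIP and 2.16% of those of Input under the SW480 label, and 2.53% and 1.77% under the DLD-1 label.

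**Figure D1:**
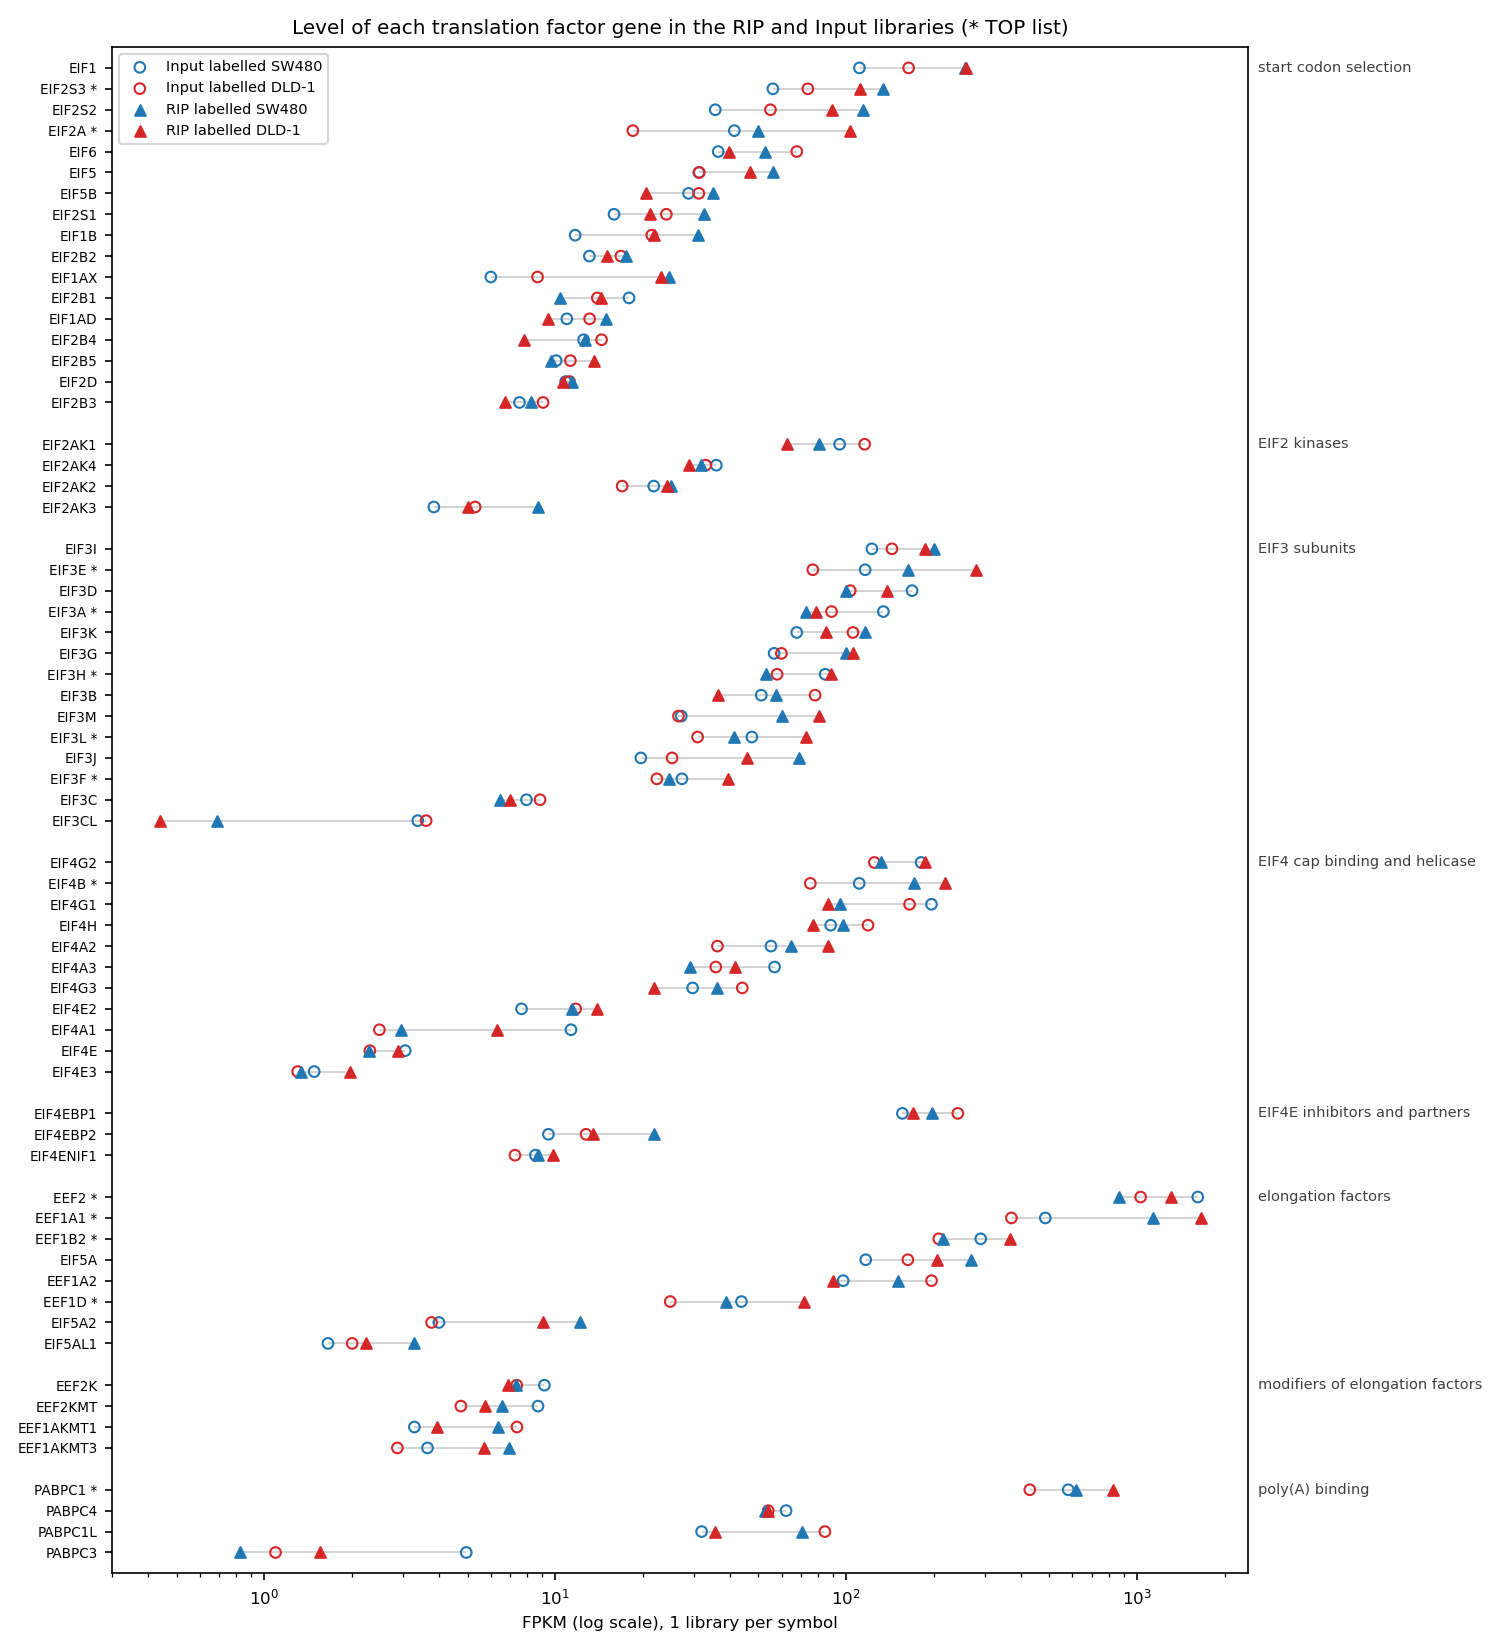
FPKM of 65 translation factor genes on a log scale, by role, in the 4 libraries of the RIP table. Open circles are Inputs, filled triangles are RIP libraries, blue is labelled SW480 and red is labelled DLD-1, with 1 library per symbol and stars on the TOP list. EEF2 and EEF1A1 stand highest, and the red triangle of most starred genes lies to the right of the blue one while the red circle lies to the left.

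The ratio of RIP to Input was log2((RIP FPKM + 1) / (Input FPKM + 1)). The added 1 makes the ratio of a low gene smaller than its true change. As labelled, 13 of the 66 members were at least 2-fold higher in RIP than in Input under the SW480 labels (19.7%, against 17.4% of all protein-coding genes tested) and 11 under the DLD-1 labels (16.7%, against 16.7%). At least 2-fold lower were 4 members under the SW480 labels (6.06%, against 9.17%) and 4 under the DLD-1 labels (6.06%, against 12.8%). The median ratio of the members was 0.20 under the SW480 labels and 0.24 under the DLD-1 labels, and that of all protein-coding genes was 0.18 and 0.07. The shares of members that were higher were thus near the background under both labels.

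With the Inputs exchanged, 10 members were at least 2-fold higher in RIP labelled SW480 (15.2%, against 10.1% of protein-coding genes) and 9 in RIP labelled DLD-1 (13.6%, against 10%). At least 2-fold lower were 1 member (1.52%, against 3.93%) and 3 members (4.55%, against 4.51%). The median ratios were 0.14 and 0.20 for the members, and 0.11 and 0.09 for all protein-coding genes. As labelled, 34 of 66 members had ratios of opposite sign in the 2 lines (51.5%, against 47.6% of all protein-coding genes). When the Inputs were exchanged, 12 of 66 did (18.2%, against 19%). Signs were counted whatever the counting error. The plot of the ratios shows how the scatter of the members closes along the diagonal when the Inputs are exchanged.

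A second table, deposited with the acRIP data, holds other values for the same Input samples. With these, scaled to the same median, the sign of the ratio turned in 9 of the 66 members under the SW480 labels (13.6%, against 17.9% of protein-coding genes) and in 13 under the DLD-1 labels (19.7%, against 17.3%). The ratio over the Input of the acRIP table is given below for each described member whose sign turned, and it has no counting error.

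**Figure D2:**
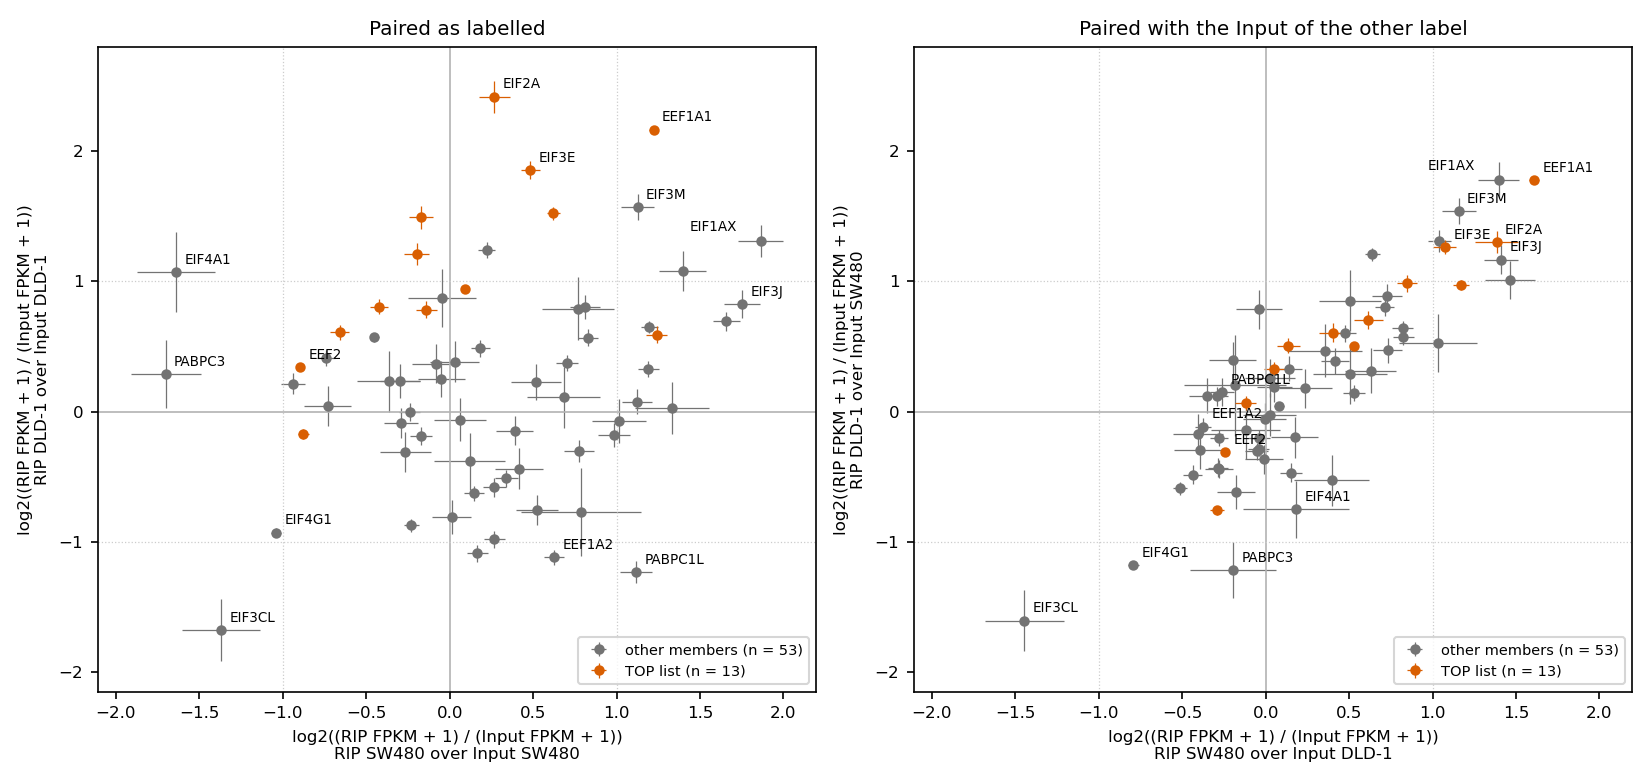
Ratio of RIP to Input of the 66 members, log2((RIP FPKM + 1) / (Input FPKM + 1)), as labelled (left) and with the Inputs exchanged (right). Bars are 2 counting standard errors, orange marks the 13 tested genes of the TOP list and grey the other 53. EEF1A1, EIF1AX and EIF3M lie at the upper right in both panels and EIF3CL and EIF4G1 at the lower left, while PABPC1L and EIF4A1 leave opposite corners.

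The TOP list held 14 members, of which 13 were tested. It was among the lists chosen with earlier results of these data known. In Input, 12 of the 13 were higher under the SW480 label than under the DLD-1 label, against 20 of the other 53 members and 48.0% of all protein-coding genes. The median log2 difference was 0.55, against -0.15 for the other 53 members and -0.03 for all protein-coding genes. In bulk RNA, fewer cells with an RNA and less of it per cell cannot be told apart. In the acRIP table, whose values are for the same Input samples and so are not independent, the counts were 12 of 13 and the median 0.65. In RIP the order was turned: 12 of the 13 were lower under the SW480 label, against 18 of the other 53 members. Of all protein-coding genes, 53.5% were higher under this label in RIP. The median log2 difference was -0.65, against 0.20 for the other members and 0.05 for all protein-coding genes. The exception was EIF2S3, the gamma subunit of EIF2, at -0.39 ± 0.04 between the Inputs and 0.25 ± 0.021 between the RIP libraries. The turn itself was no feature of the list, since the differences in Input and in RIP had opposite signs in 54 of the 66 members (81.8%) and in 78.3% of all protein-coding genes. Of the other 53 members, 13 were likewise higher in Input and lower in RIP labelled SW480. Members outside the list with a run of at least 5 bases differed among themselves. Between the Inputs and between the RIP libraries, EIF3D was at 0.70 and -0.46 and EIF4A2 at 0.60 and -0.42. EIF3M was at 0.03 and -0.41, EIF2D at -0.04 and 0.09, and EIF3K at -0.63 and 0.44.

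In consequence, the TOP members depended on the pairing. Their median ratio was -0.14 under the SW480 labels and 0.94 under the DLD-1 labels, but 0.53 and 0.61 with the Inputs exchanged. As labelled, 6 of the 13 were above Input under the SW480 labels (against 58% of protein-coding genes) and 12 under the DLD-1 labels (against 52.9%). With the Inputs exchanged, 10 of the 13 were above Input in RIP labelled SW480 (against 57%) and 11 in RIP labelled DLD-1 (against 55.1%). Of all 66 members, 41 were above Input under either pair of labels (62.1%), and 39 (59.1%) and 41 (62.1%) with the Inputs exchanged. The other 53 members had medians of 0.27 and 0.08 as labelled and of 0.05 and 0.14 with the Inputs exchanged.

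**Figure D3:**
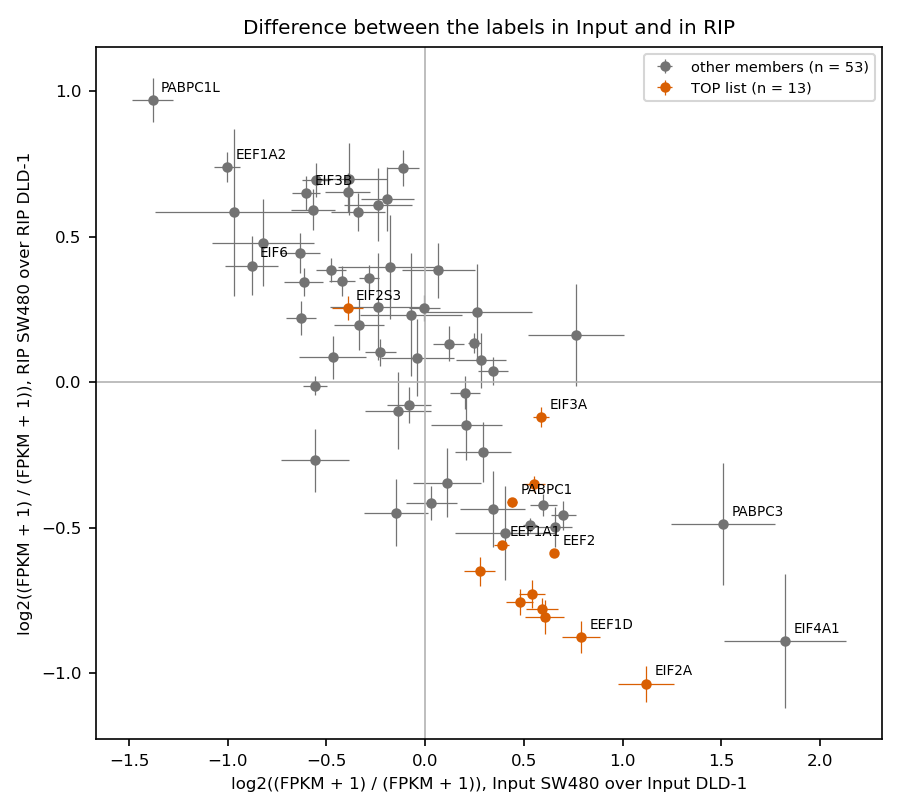
Difference between the labels, as log2 of the ratio of (FPKM + 1), in the Inputs (horizontal) and in the RIP libraries (vertical) for the 66 members, with bars of 2 counting standard errors. Of the 13 orange genes of the TOP list, 12 lie at the lower right, higher in the Input labelled SW480 and lower in the RIP library labelled SW480, and EIF2S3 lies at the upper left.

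The elongation factors held the most abundant members. EEF1A1, which brings aminoacyl-tRNA to the ribosome, was at 1131 FPKM in RIP and 484 in Input labelled SW480, and 1665 in RIP and 370.2 in Input labelled DLD-1. Both RIP libraries were above both Inputs. The ratio was 1.22 ± 0.013 (counting SE) under the SW480 labels and 2.17 ± 0.014 under the DLD-1 labels, and 1.61 ± 0.015 and 1.78 ± 0.012 over the other Inputs. Over the acRIP table it was lower, 0.28 and 1.25. The gene has many processed pseudogenes, and reads shared with them could have been split by the counting.

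EEF2, the translocase, was at 868 FPKM in RIP and 1618 in Input labelled SW480, and 1305 in RIP and 1029 in Input labelled DLD-1, and here the RIP and Input values overlapped. Its ratio was -0.90 ± 0.0073 and 0.34 ± 0.0082 as labelled, and -0.25 ± 0.0085 and -0.31 ± 0.0069 over the other Inputs, so the ratio was below 0 in both only with the Inputs exchanged. EEF1A1 and EEF2, which act in the same cycle and both begin with a run of 7 pyrimidines, thus stood apart in RIP. In the exchanged pairing, EEF1A1 was above Input in both lines and EEF2 below it. Over the acRIP table EEF2 was at -0.71 and 0.57 as labelled. With the Inputs of that table exchanged, EEF2 was at -0.01 and -0.13 and EEF1A1 at 0.69 and 0.83.

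EEF1B2 and EEF1D, subunits of the exchange factor of EEF1A, had ratios below 0 under the SW480 labels, -0.43 ± 0.027 and -0.17 ± 0.036, and above 0 under the DLD-1 labels, 0.81 ± 0.03 and 1.49 ± 0.043. EEF1D was at 38.6 FPKM in RIP and 43.7 in Input labelled SW480, and 71.7 in RIP and 24.9 in Input labelled DLD-1. Over the other Inputs EEF1B2 was at 0.05 ± 0.031 and 0.33 ± 0.025 and EEF1D at 0.62 ± 0.045 and 0.70 ± 0.034. EEF1A2, the tissue-restricted paralog of EEF1A1, ran the other way, with 151 FPKM in RIP and 97.7 in Input labelled SW480, and 90.2 in RIP and 197 in Input labelled DLD-1. Its ratio went from 0.62 ± 0.031 to -1.12 ± 0.029 as labelled and lay at -0.38 ± 0.025 and -0.11 ± 0.034 over the other Inputs.

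EIF5A2, a paralog of the hypusine-containing factor EIF5A, was low but above Input in each pairing. It had 12.1 FPKM in RIP and 3.99 in Input labelled SW480, and 9.06 in RIP and 3.76 in Input labelled DLD-1. Its ratio was 1.40 ± 0.07 and 1.08 ± 0.077 as labelled, and 1.46 ± 0.074 and 1.01 ± 0.074 over the other Inputs, and 0.96 and 0.33 over the acRIP table. EIF5A itself, whose retrogene copy EIF5AL1 may share its reads, had ratios of 1.19 ± 0.031 and 0.33 ± 0.03 as labelled and 0.71 ± 0.028 and 0.80 ± 0.033 over the other Inputs. EEF1E1, a scaffold of the aminoacyl-tRNA synthetase complex, fell under the Input minimum, with at least 35 reads in Input labelled SW480 and 10 in Input labelled DLD-1. EEF1G, the gamma subunit of the EEF1 complex, was listed at 0 in all 4 libraries although each acRIP list places a peak on it. EEF1E1-BLOC1S5, a readthrough gene, was also listed at 0.

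The group of 18 genes named here after start codon selection also held genes with other roles, namely the subunits of EIF2B, EIF2D, EIF6 and EIF1AD. Of the 18, 15 were above Input under the SW480 labels and 10 under the DLD-1 labels, with median ratios of 0.40 and 0.04. Against the shares of all protein-coding genes, 58% and 52.9%, the second count was near the background. Over the other Inputs 13 and 12 were above, with medians of 0.26 and 0.39. EIF1, which keeps the scanning ribosome from starting at a wrong codon, was the most abundant at 256 FPKM in RIP and 111 in Input labelled SW480, and 258 in RIP and 164 in Input labelled DLD-1. Both RIP values of EIF1 lay above both Inputs, with ratios of 1.20 ± 0.026 and 0.65 ± 0.023 as labelled and 0.64 ± 0.023 and 1.21 ± 0.026 over the other Inputs.

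EIF1AX, which works with EIF1 in scanning, was at 24.5 FPKM in RIP and 6.01 in Input labelled SW480, and 23.1 in RIP and 8.70 in Input labelled DLD-1. Its ratios, 1.87 ± 0.067 and 1.31 ± 0.063 as labelled and 1.40 ± 0.062 and 1.78 ± 0.068 over the other Inputs, were above 2-fold in each pairing. Over the acRIP table they were below 2-fold, 0.96 and 0.68. EIF1AY, its Y-linked paralog, was among the 18 genes and its level is not given. Of the 3 subunits of EIF2, EIF2S2, the beta subunit, had ratios of 1.66 ± 0.041 and 0.70 ± 0.037 as labelled and 1.04 ± 0.035 and 1.31 ± 0.042 over the other Inputs. EIF2S3 had 1.24 ± 0.032 and 0.59 ± 0.031, and 0.85 ± 0.03 and 0.98 ± 0.033 over the other Inputs. Over the acRIP table both turned under the DLD-1 labels, with 0.19 and -0.66 for EIF2S2 and 0.56 and -0.06 for EIF2S3. EIF2S1, the alpha subunit that the EIF2 kinases phosphorylate, had 0.98 ± 0.047 and -0.18 ± 0.046 as labelled and 0.42 ± 0.042 and 0.39 ± 0.051 over the other Inputs.

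EIF2A, a separate factor that can deliver initiator tRNA, showed the widest gap of its role. It was at 49.9 FPKM in RIP and 41.3 in Input labelled SW480, and 103 in RIP and 18.5 in Input labelled DLD-1. Its ratio was 0.27 ± 0.046 under the SW480 labels and 2.42 ± 0.061 under the DLD-1 labels. Over the other Inputs the gap closed to 1.38 ± 0.063 and 1.30 ± 0.043. The 5 subunits of EIF2B, the exchange factor of EIF2, stayed within 2-fold of Input under both labels, with the lowest at -0.81 ± 0.064 (EIF2B4, DLD-1 labels) and the highest at 0.39 ± 0.055 (EIF2B2, SW480 labels). Over the other Inputs EIF2B4 was at -0.18 ± 0.057 and -0.62 ± 0.065 and EIF2B2 at 0.05 ± 0.052 and 0.19 ± 0.057. Under the SW480 labels EIF2B4 was at 0.01 ± 0.058, and at -0.15 over the acRIP table. Under the DLD-1 labels it was past 2-fold lower over the acRIP table, at -1.22.

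The 4 EIF2 kinases, which hold back initiation under stress, had median ratios of 0.01 and -0.13, and of 0.24 and -0.08 over the other Inputs. EIF2AK1, the haem-regulated kinase, was the most abundant at 80.9 FPKM in RIP and 95 in Input labelled SW480, and 62.8 in RIP and 116 in Input labelled DLD-1. Both its RIP values lay below both Inputs, with ratios of -0.23 ± 0.023 and -0.87 ± 0.024 as labelled and -0.51 ± 0.022 and -0.59 ± 0.025 over the other Inputs. EIF2AK4, which senses uncharged tRNA, was at -0.17 ± 0.033 and -0.19 ± 0.036 as labelled and -0.05 ± 0.034 and -0.31 ± 0.034 over the other Inputs, but above 0 over the acRIP table, at 0.54 and 0.50. EIF2AK3, the kinase of the endoplasmic reticulum, was at 1.01 ± 0.08 and -0.07 ± 0.083 as labelled and 0.63 ± 0.076 and 0.32 ± 0.087 over the other Inputs.

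EIF3, the initiation factor with the most subunits, binds the small ribosomal subunit and recruits the mRNA, and its 14 genes split in RIP. Under the SW480 labels 7 were above and 7 below Input (median 0.01), and under the DLD-1 labels 9 were above and 5 below (median 0.51). Over the other Inputs 8 and 9 were above, with medians of 0.14 and 0.42. EIF3I, the most abundant on the mean of the 4 libraries, had 200.4 FPKM in RIP and 123 in Input labelled SW480, and 187 in RIP and 144 in Input labelled DLD-1. Its ratios were 0.70 ± 0.032 and 0.37 ± 0.032 as labelled and 0.48 ± 0.031 and 0.60 ± 0.033 over the other Inputs. EIF3G, its neighbour in the complex, was at 0.81 ± 0.045 and 0.80 ± 0.046, and at 0.73 ± 0.046 and 0.89 ± 0.046 over the other Inputs.

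EIF3M was at 60.4 FPKM in RIP and 27.1 in Input labelled SW480, and 80.9 in RIP and 26.5 in Input labelled DLD-1, with ratios of 1.13 ± 0.049 and 1.57 ± 0.05 as labelled and 1.16 ± 0.051 and 1.54 ± 0.048 over the other Inputs. EIF3J, a loosely bound subunit, was at 68.8 FPKM in RIP and 19.7 in Input labelled SW480, and 45.5 in RIP and 25.2 in Input labelled DLD-1. Its ratios were 1.75 ± 0.054 and 0.83 ± 0.054 as labelled, and 1.41 ± 0.051 and 1.17 ± 0.057 over the other Inputs. Both genes had each RIP value above each Input. EIF3A, the scaffold of the complex, lay below Input in each pairing, at -0.88 ± 0.017 and -0.17 ± 0.02 as labelled and -0.29 ± 0.02 and -0.76 ± 0.018 over the other Inputs.

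EIF3E had the highest ratio of the complex under the DLD-1 labels, 1.85 ± 0.034, against 0.48 ± 0.029 under the SW480 labels. EIF3B, a subunit with an RNA recognition motif, was at -1.09 ± 0.033 and 0.17 ± 0.032 under the same labels. Over the other Inputs the gaps between the labels closed, to 1.07 ± 0.035 and 1.26 ± 0.027 for EIF3E and to -0.44 ± 0.029 and -0.48 ± 0.036 for EIF3B. EIF3C and EIF3CL are near-identical copies and share reads, so their split is uncertain. EIF3C had ratios of -0.26 ± 0.075 and -0.31 ± 0.076 as labelled, -0.40 ± 0.075 and -0.17 ± 0.077 over the other Inputs and 0.04 and 0.89 over the acRIP table, where both turned. EIF3CL had -1.37 ± 0.12 and -1.68 ± 0.12 as labelled and -1.45 ± 0.12 and -1.60 ± 0.12 over the other Inputs, from at least 63 and 34 reads in the RIP libraries.

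The cap-binding and helicase genes had median ratios of -0.08 and 0.24, and of -0.01 and -0.06 over the other Inputs. EIF4G1, the scaffold that joins the cap to EIF3 and to poly(A)-binding protein, was at 95 FPKM in RIP and 197 in Input labelled SW480, and 86.4 in RIP and 165 in Input labelled DLD-1. Both RIP values were below both Inputs. Its ratio was -1.04 ± 0.016 and -0.93 ± 0.018 as labelled, and -0.79 ± 0.017 and -1.18 ± 0.017 over the other Inputs. Over the acRIP table it was -0.85 and -0.73. Of the tested members, only EIF3CL was lower than EIF4G1 in each pairing. EIF4G2, a relative that lacks the part that binds EIF4E, was the most abundant of the role, with 132 FPKM in RIP and 181 in Input labelled SW480, and 186 in RIP and 125 in Input labelled DLD-1. Its ratio was -0.45 ± 0.014 and 0.57 ± 0.016 as labelled and near 0 over the other Inputs, 0.08 ± 0.016 and 0.04 ± 0.013.

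EIF4B, which stimulates the helicase, was above Input in each pairing, at 0.62 ± 0.02 and 1.52 ± 0.024 as labelled and 1.17 ± 0.024 and 0.97 ± 0.02 over the other Inputs, but at -0.02 under the SW480 labels over the acRIP table. The helicase EIF4A1 overlaps a readthrough gene and was listed very low, with 2.96 FPKM in RIP and 11.3 in Input labelled SW480, and 6.33 in RIP and 2.49 in Input labelled DLD-1. Its ratio turned from -1.64 ± 0.12 to 1.07 ± 0.15 as labelled, the widest gap of all tested members, and to 0.18 ± 0.16 and -0.75 ± 0.11 over the other Inputs. Its paralog EIF4A2 was at 0.22 ± 0.026 and 1.24 ± 0.031 as labelled, 0.82 ± 0.031 and 0.64 ± 0.025 over the other Inputs and -0.36 and 0.79 over the acRIP table. EIF4E, the cap-binding protein, was at 2.30, 3.05, 2.89 and 2.31 FPKM in the same order of libraries, with ratios of -0.30 ± 0.06 and 0.24 ± 0.065 as labelled, -0.01 ± 0.064 and -0.06 ± 0.061 over the other Inputs and -1.38 and -0.74 over the acRIP table. EIF4E1B was listed at 0 in all 4 libraries.

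Of the inhibitors and partners of EIF4E, EIF4EBP1 was the most abundant, with 198 FPKM in RIP and 156 in Input labelled SW480, and 169.7 in RIP and 242 in Input labelled DLD-1. Its ratio was 0.34 ± 0.035 and -0.51 ± 0.033 as labelled and -0.29 ± 0.031 and 0.12 ± 0.037 over the other Inputs. EIF4EBP2 was at 1.12 ± 0.046 and 0.08 ± 0.046 as labelled, 0.73 ± 0.043 and 0.47 ± 0.049 over the other Inputs and 0.81 and -0.42 over the acRIP table. EIF4EBP3, which shares its locus with a readthrough gene, was at 0 in the Input labelled SW480 and at 5.15 FPKM in the Input labelled DLD-1 (at least 48 reads), and at 0.0488 and 0.287 FPKM in the RIP libraries.

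Of the 5 genes that modify elongation factors, 4 were tested, and EEF2K, the kinase that inactivates EEF2, was the most abundant. It was at 7.32 FPKM in RIP and 9.19 in Input labelled SW480, and 6.90 in RIP and 7.38 in Input labelled DLD-1, with ratios of -0.29 ± 0.052 and -0.09 ± 0.059 as labelled and -0.01 ± 0.057 and -0.37 ± 0.054 over the other Inputs. The 4 ratios of this role lay between -0.37 and 0.79 under the SW480 labels and between -0.77 and 0.79 under the DLD-1 labels, and over the other Inputs between -0.19 and 1.03 and between -0.53 and 0.53.

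Among the poly(A)-binding proteins, which join the tail of the mRNA to EIF4G, PABPC1 was the most abundant. It was at 619 FPKM in RIP and 580.5 in Input labelled SW480, and 824 in RIP and 428 in Input labelled DLD-1. Both RIP values lay above both Inputs, with ratios of 0.09 ± 0.01 and 0.94 ± 0.011 as labelled and 0.53 ± 0.012 and 0.51 ± 0.0099 over the other Inputs. PABPC4 was at -0.24 ± 0.031 and 0.00 ± 0.034 as labelled, -0.04 ± 0.034 and -0.20 ± 0.032 over the other Inputs and -0.10 and 0.32 over the acRIP table.

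PABPC1L, a paralog known from oocytes, was at 70.4 FPKM in RIP and 31.9 in Input labelled SW480, and 35.5 in RIP and 84.6 in Input labelled DLD-1. Its ratio turned from 1.12 ± 0.048 to -1.23 ± 0.042 as labelled and lay at -0.26 ± 0.035 and 0.15 ± 0.054 over the other Inputs. PABPC3, an intronless copy of PABPC1 that may share its reads, turned from -1.70 ± 0.1 to 0.29 ± 0.13 as labelled and was at -0.20 ± 0.13 and -1.22 ± 0.11 over the other Inputs. PABPC1L2A, PABPC1L2B and PABPC5 were listed at 0 in all 4 libraries, and PABPC4L was above 0 in 1 library only.

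Between the Inputs themselves, 3 of the 68 members with at least 1 FPKM in either were at least 2-fold higher under the SW480 label (4.41%, against 8.71% of protein-coding genes), namely EIF4A1 at 1.82 ± 0.15, PABPC3 at 1.51 ± 0.13 and EIF2A at 1.12 ± 0.07. At least 2-fold lower were 3 members (4.41%, against 15.6%), namely EIF4EBP3, PABPC1L at -1.38 ± 0.052 and EEF1A2, at 97.7 FPKM against 197. In the Inputs of the acRIP table the same differences were 0.94 for EIF4A1, 2.64 for PABPC3, 1.07 for EIF2A, -1.45 for PABPC1L and -0.91 for EEF1A2, and EIF4EBP3 was listed at 0 in both of them.

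A list of 25 other genes of the pathway (release factors, recycling and surveillance factors, mTOR and the S6 kinases among them) was all tested. As labelled, 6 were at least 2-fold higher in RIP and 1 lower under the SW480 labels, and 4 higher and 2 lower under the DLD-1 labels, beside 17.4%, 9.17%, 16.7% and 12.8% of all protein-coding genes. Their median ratios were 0.48 and 0.45 (0.18 and 0.07 over all protein-coding genes), and 0.41 and 0.30 with the Inputs exchanged (0.11 and 0.09).

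For ac4C, each acRIP list gives the peaks of 1 library with their host gene, and its folds are over Input. The lists are named here by their labels. The lack of pairing by label between RIP and Input leaves the labels of both in doubt, and the part of this in the folds was not tested. Of 1126 protein-coding genes with a peak in the SW480 list only, 41.3% were higher in Input labelled SW480 than in Input labelled DLD-1 (48.0% of all tested) and 62.2% in RIP labelled SW480 (53.5% of all tested). For the 1711 with a peak in the DLD-1 list only, these shares were 51.5% and 50.2%. Of the tested members, they were 50% and 33.3% for the 6 with a peak in the SW480 list only. For the 8 members with a peak in the DLD-1 list only, they were 50% and 50%. Of the 76 members, 52 had a peak in the SW480 list, 54 in the DLD-1 list and 45 in both. Of the 66 members with an Input of at least 1 FPKM, 49 had a peak in the SW480 list (74.2%, against 51.1% of protein-coding genes), 51 in the DLD-1 list (77.3%, against 56.8%) and 43 in both (65.2%, against 40.3%). Among genes with an Input of at least 50 FPKM the shares of both were higher and lay closer together. There 18 of 23 members had a peak in SW480 (78.3%, against 81.2%), 21 in DLD-1 (91.3%, against 84.3%) and 17 in both (73.9%, against 76.7%). Members with a peak had a median Input of 35.8 FPKM in SW480 and 35.7 in DLD-1, and members without one of 9.19 and 5.31. Their median RIP/Input ratio was 0.22 with and 0.12 without a peak under the SW480 labels, and 0.33 and -0.07 under the DLD-1 labels. When the Inputs were exchanged these were 0.18 and -0.01, and 0.29 and 0.18.

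The members held 77 peaks in the SW480 list and 150 in the DLD-1 list. All protein-coding hosts held 8924 and 13336. More peaks in DLD-1 were listed for 33 members and more in SW480 for 9. Of the 66 tested members these were 32 (48.5%, against 35.2% of protein-coding genes) and 8 (12.1%, against 16.4%). The shares were not matched for Input, which was higher in the members. The largest gaps were in EIF4A2 (1 against 9 peaks), EIF5, the GTPase-activating protein of EIF2 (1 against 8), and EIF4G2 (1 against 7). Among the scanning factors, EIF1AX had 4 peaks in SW480 and 7 in DLD-1. EIF3A, EIF3E and EIF3H had peaks in the DLD-1 list alone (4, 3 and 1), while EIF3C and EIF3K had theirs in the SW480 list alone. With no replicate and no depth for acRIP, the part of library depth in these counts was not tested.

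**Figure D4:**
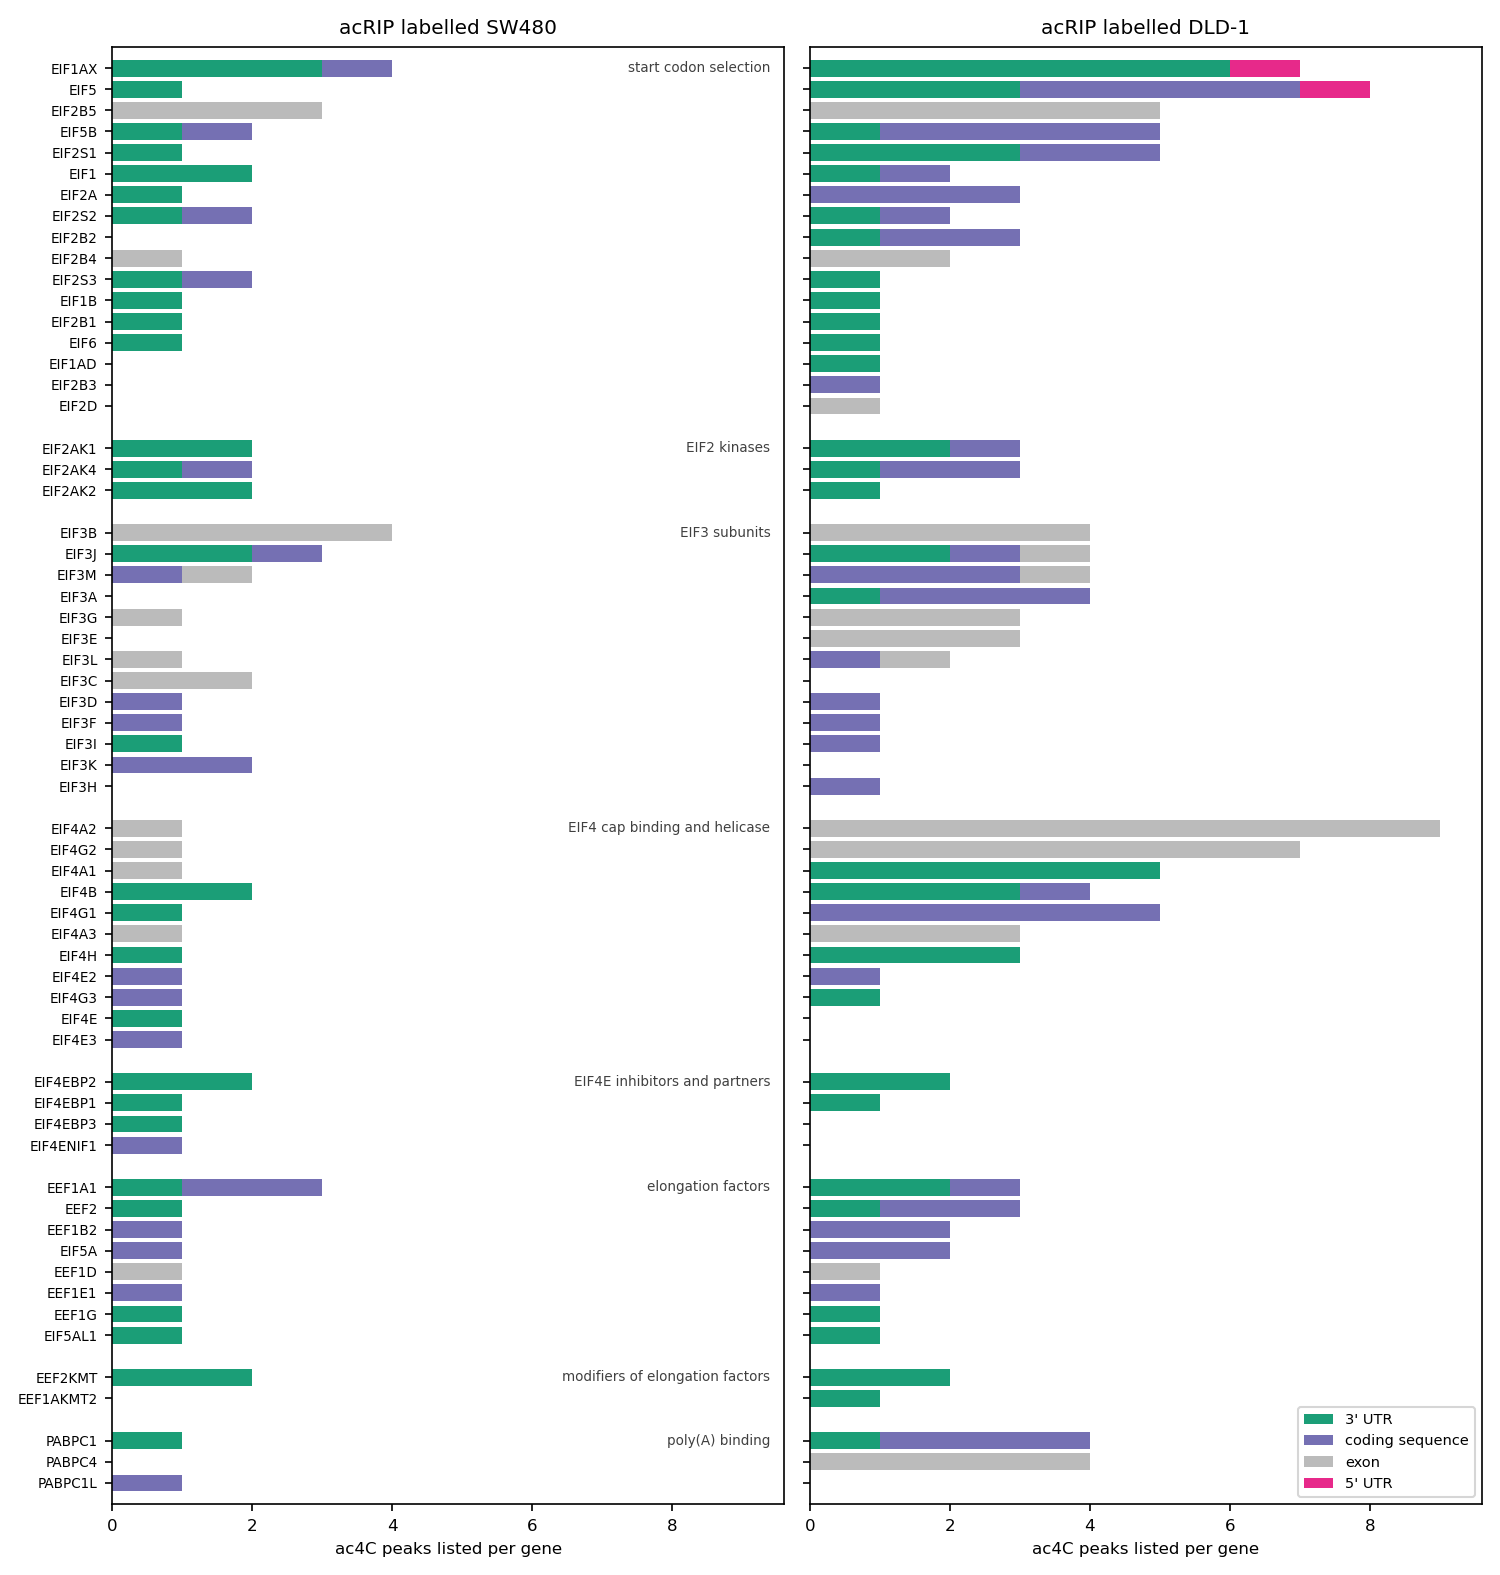
Number of ac4C peaks listed for each member with a peak in either line, by role, in the SW480 list (left) and the DLD-1 list (right). Colours give the position in the host gene as the lists name it. The bars of EIF4A2, EIF5 and EIF4G2 reach 9, 8 and 7 peaks in DLD-1 against 1 each in SW480.

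By the position that the lists give, 38 of the 77 peaks in SW480 lay in the 3′ UTR (49.4%, 95% Wilson interval 38.5 to 60.3), against 56.3% of the peaks of all protein-coding hosts. In DLD-1 52 of 150 did (34.7%, 27.5 to 42.6, against 43.2%), and the interval ended below the share of all hosts. Coding sequence held 21 peaks in SW480 (27.3%, 18.6 to 38.1, against 25.8%) and 51 in DLD-1 (34%, 26.9 to 41.9, against 40.0%). Peaks named only as exon made up 18 in SW480 (23.4%, 15.3 to 34.0, against 16.6%) and 45 in DLD-1 (30%, 23.2 to 37.8, against 15.0%). In DLD-1 this last interval lay above the share of all hosts. Yet EIF4A2, EIF4G2 and EIF2B5 alone gave 9, 7 and 5 of the 45, and every listed peak of these genes was named exon. No peak of the members was listed in the 5′ UTR in SW480, and 2 were in DLD-1, on EIF1AX and EIF5. The 0 of 77 in SW480 allows a share of up to 3.90% by 3 counts of the total, and of 4.75% by the Wilson interval. Each peak has 1 listed position, also where it has several blocks. The 5′ UTR peak of EIF1AX in DLD-1 shared 330 bases with a SW480 peak listed as coding sequence. On EIF4G1, 778 shared bases were listed as 3′ UTR in SW480 and coding sequence in DLD-1. The part of the listing in differences of position between the lists was not tested. Peaks of 1 gene share their RNA, and often their listed position, so the intervals cover counting error only. The intervals take peaks as independent and so do not describe the spread between genes.

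Of the 77 peaks in SW480, 52 shared at least 1 base on the same strand with a DLD-1 peak of the same gene (67.5%), and of the 150 in DLD-1, 53 shared bases with SW480 (35.3%). Over the peaks of all protein-coding hosts these shares were 55.6% and 35.9%, not matched for Input. In 36 peaks of the members the shared part covered at least 50% of both. The 5 shared peaks described next had the highest smaller fold of the 2 lists, and the first was on EIF6, which keeps the ribosomal subunits apart. Its peak covered 625 bases in 3 blocks at chr20:35278937-35280114, minus strand, and was listed as 3′ UTR. It had the same ends in both lists and a fold of acRIP over Input of 942 in SW480 and 347 in DLD-1. The next was on EIF4H, which stimulates the helicase, at chr7:74196713-74197012, plus strand, 300 bases of the 3′ UTR with a fold of 150 in SW480 and 461 in DLD-1. In the DLD-1 list alone, EIF4H and an exon peak of EIF3B with a fold of 429 stood above EIF6.

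EIF4EBP2 carried a 3′ UTR peak at chr10:70423311-70423851, plus strand, with a fold of 264 in SW480, and the DLD-1 peak that begins at the same base was shorter, 271 against 541 bases, with a fold of 94.4. On EIF3M the shared peak lay in exons at chr11:32601479-32602429, plus strand, 271 bases in 4 blocks, with a fold of 82.1 in SW480 and 217 in DLD-1. EIF2S3 carried a 3′ UTR peak of 1048 bases at chrX:24076774-24077821, plus strand, with a fold of 217 in SW480 and 74.2 in DLD-1. Of these 5 genes, EIF3M, EIF2S3 and EIF4EBP2 were above Input in RIP in each pairing, but EIF2S3 and EIF4EBP2 were below it under the DLD-1 labels over the acRIP table, at -0.06 and -0.42. EIF6 was at 0.52 ± 0.062 and -0.76 ± 0.057 as labelled and at -0.35 ± 0.052 and 0.12 ± 0.066 over the other Inputs. EIF4H was at 0.14 ± 0.029 and -0.63 ± 0.029 as labelled, -0.28 ± 0.027 and -0.20 ± 0.031 over the other Inputs and -0.18 and -0.84 over the acRIP table.

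Folds on EEF1A1 and EEF2, the most abundant members, were below those of these 5 peaks. On EEF1A1 both lists held the 3′ UTR peak chr6:73517543-73517752, minus strand, with a fold of 41.0 in SW480 and 25.9 in DLD-1, and a coding peak next to it with a fold of 5.72 and 19.3. EEF2 had 1 peak in SW480 with a fold of 2.32 and 3 in DLD-1 with folds between 2.35 and 2.68, and none of them overlapped. EEF1B2 had 1 coding peak in SW480 with a fold of 23.2, and 2 in DLD-1 with folds of 4.31 and 155 that both overlapped it. EEF1G had 1 long peak in each list, with folds of 71.2 and 18.1 and 1075 shared bases, although its FPKM is listed at 0. Both peaks were listed as 3′ UTR, but had 8 blocks in SW480 and 7 in DLD-1. EIF4G1, below Input in RIP, had 1 peak in SW480 with a fold of 35.4 and 5 in DLD-1, where the highest fold was 243. EIF2A had 3 coding peaks in DLD-1 with folds of 13.4, 46.4 and 25.2 and a single 3′ UTR peak in SW480 with a fold of 4.63, and these did not overlap.

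The lists also count sites of a pattern of evenly spaced cytidines. At least 1 site was listed in 40 of the 77 member peaks in SW480 (51.9%, 41.0 to 62.7) and in 75 of the 150 in DLD-1 (50%, 42.1 to 57.9). All protein-coding hosts had shares of 56.2% and 54.8%, which lie within these intervals. The median fold of the member peaks was 18.7 in SW480 and 13.1 in DLD-1, against 19.8 and 14.7 for all protein-coding hosts. In the list called on both lines together, 59 members held 155 peaks.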

How the data were processed

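The 6 libraries were grouped by the titles that the submitters gave them, 1 per group. Per the processing notes of the submitters, reads were trimmed with cutadapt 2.5 and aligned with HISAT2 2.1.0 to GRCh38. The counting tool, its strand setting and the peak caller are not given in the sources used here. Without strand, reads of a gene and of an overlapping or antisense gene cannot be told apart. The authors deposited FPKM values for the RIP and Input libraries, and a second table whose Input values were read as FPKM although no unit is named. They also deposited 3 columns of their own ratios of RIP to Input, which were not used. The acRIP lists that the authors deposited give for each peak a fold of acRIP over Input, a p-value and scores, which are the base-10 logarithms of that p-value and of its false discovery rate. In its results the study names IgG groups beside IP, but labels and table hold Input, which was used here.

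Relative depth was solved from the whole-number steps of the FPKM values, and checked on simulated data. This gave the smallest whole reads for all 29953 genes above 0. The counting errors are therefore upper limits only if each read stands for a separate molecule. The share of PCR copies is not known, and with such copies the errors given are too small. Ratios used a pseudocount of 1 over genes with an Input of at least 1 FPKM under both labels, and a call was a ratio of at least 2. Peak starts were moved by 1 base to count from 1. Computation used Python 3.11.15, numpy 2.4.6, pandas 2.3.3 and scipy 1.17.1, and figures matplotlib 3.10.9.

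The members and lists were chosen with earlier results of these data known. Genes described library by library were the most abundant of each role, the 6 highest and 6 lowest of those with ratios of the same sign under both labels, all past 2-fold in both, the 6 with the widest gap between the labels and the 6 that differed most between the Inputs. The 5 shared peaks with the highest smaller fold were described. Genes named beside these were chosen after their values were seen. Alternatives were another pseudocount, other filters, centring, the Input of the other label and of the other table, and for peaks the p-value, the false discovery rate and the overlap.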

Additional observations from a re-analysis of the deposited data

Results flagged for a closer look

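The ratio of RIP to Input had opposite signs under the SW480 and the DLD-1 labels in 17 of the 42 genes whose ratios are given above. Over all 66 tested members the share was 51.5%, and over all protein-coding genes 47.6%. Signs were counted whatever the counting error. EIF2B4 under the SW480 labels (0.01 ± 0.058) and EIF2AK3 under the DLD-1 labels (-0.07 ± 0.083) lay within their counting error of 0. Part of the 42 genes were chosen by the sign or the gap of their ratios, so their count does not describe the members. With 1 library per group the difference between the labels was not tested. The difference of the log2 ratios (SW480 minus DLD-1 labels) was 2.35 in PABPC1L, 1.74 in EEF1A2, 1.28 in EIF6, 1.25 in EIF3B, 1.16 in EIF2S1, 1.09 in EIF2AK3, 0.85 in EIF4EBP1, 0.82 in EIF2B4, 0.77 in EIF4H and 0.54 in EIF2B2. It was -2.71 in EIF4A1, -1.99 in PABPC3, -1.66 in EEF1D, -1.24 in EEF2, -1.23 in EEF1B2, -1.02 in EIF4G2 and -0.53 in EIF4E. With the Inputs exchanged between the labels, the signs were still opposite in PABPC1L, EIF4A1, EIF4EBP1 and EIF6, and were the same in the other 13 genes. The RIP libraries correlated better with the Input of the other label, and the part of the labels in these differences was not tested.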

How the results depend on the processing

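With 1 library per group no library could be left out. No paired analysis was possible because no result comes from a test. Of 66 recomputed values, 54 stayed within 1.5 times the count, or within 2 median counting errors of the median, and 12 did not. With the Inputs exchanged between the labels, 1 member in place of 4 was at least 2-fold lower under the SW480 label of the RIP library, and 12 in place of 34 had opposite signs. Over the Input of the acRIP table, scaled, 7 in place of 11 were at least 2-fold higher under the DLD-1 labels. With the Inputs of that table exchanged, a setting chosen after seeing the data, 4 in place of 13 were higher and 0 in place of 4 lower under the SW480 label, 7 in place of 11 were higher under the DLD-1 label, 9 had opposite signs and the SW480 median was 0.10 in place of 0.20. With an Input of at least 10 FPKM, 1 in place of 4 was lower under the SW480 labels, as fewer genes were tested, and the DLD-1 median was 0.33 in place of 0.24, within that limit. Centred on the protein-coding median, 7 in place of 4 were lower under the SW480 labels and the SW480 median was 0.026. Between the Inputs of the acRIP table, 1 member in place of 3 was lower under the SW480 label. For the rest, the cause was not tested. For single genes described above, the settings were added after seeing the data, and a ratio past 2-fold changed sign in 10 recomputed values. With the Inputs exchanged, EIF4A1 was at 0.18 and -0.75 and PABPC1L at -0.26 and 0.15 under the SW480 and DLD-1 labels of RIP. With the Inputs of the acRIP table exchanged, EIF4A1 was at 0.054 and -0.044, PABPC1L at 1.21 under the DLD-1 label, EIF3B at 0.27 under the DLD-1 label, and EIF2AK3 at -0.21 and EIF2S2 at -0.31 under the SW480 label. Of the other values of single genes, 133 stayed within 2 counting errors and 277 did not. No count of peaks moved by over 1.5 times. Low reads limit EIF4A1, EIF3CL and PABPC3, and peaks have no known depth.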
